A study of Mus musculus with 8 samples.

Results

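Cajal-Retzius cells were picked out of the cells sorted for the Drd1a-tdTomato transgene (the D1Tom sort) by their own transcripts. A cell counted as a Cajal-Retzius cell when it had a count above 0 for at least 3 of the 5 genes Reln, Trp73, Lhx5, Lhx1 and Ebf2, and a count of 0 for both Gad1 and Gad2. This left 145 of 11494 D1Tom cells, and 22876 cells were in the series as a whole. The members were thus chosen by measured counts of these 7 genes, and values of the 7 genes below describe the choice. The control libraries gave 38 and 47 such cells, and the libraries of conditional Foxp2 knockouts (cKO) 27 and 33.

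Cajal-Retzius cells are early-born glutamatergic neurons of the marginal zone, the outermost layer of the developing cortex. They secrete the large glycoprotein reelin, which binds the receptors VLDLR and ApoER2 (Lrp8) on migrating neurons, makes them phosphorylate the adaptor DAB1 and so guides the formation of cortical layers. They arise at the rim of the cortical primordium, chiefly the cortical hem, the septum and the ventral pallium, spread over the surface of the cortex, and in mice most of them die in the first postnatal weeks.

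All mice were 7 days old (P7), carried floxed Foxp2 alleles on both chromosomes and the Drd1a-tdTomato line 6 reporter, a bacterial artificial chromosome with the promoter of the dopamine D1 receptor gene, and were backcrossed to C57BL/6J. The cKO mice also carried Emx1-Cre, which is active in the dorsal telencephalic lineage, and controls were littermates without Cre. Frontal isocortex was dissociated, tdTomato-positive cells were sorted, and 10x Genomics 3′ libraries were made, 2 per genotype. Control 1 and cKO 1 (both female) were prepared on 1 day as batch 1, and control 2 (female) and cKO 2 (male) on another as batch 2. A second sort in the series used a golli-τ-eGFP reporter (GTE) on the same 2 genotypes. The study compared cell type composition and gene expression between the genotypes. Each library has 1 labelled sex, but the labels do not say how many animals it came from, so the tests measure the spread between libraries.

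D1Tom libraries held 2395 to 3206 cells and 27323298 to 36379194 counts. The Cajal-Retzius cells alone held 690147 and 771206 counts in controls 1 and 2, and 476392 and 419811 in cKO 1 and 2. They were deep cells: their median count per cell was 19447, 14947, 18258 and 12195 in that order of libraries, against 8067.5, 12668.5, 7168 and 7163.5 in the other D1Tom cells. A cell with more counts meets the rule more easily, so the 145 cells are in part selected for depth. Levels below are counts summed over the cells of a class in a library, as CPM, the usual scaling of counts to 1 fixed total per sum, and values given in a row follow the order control 1, control 2, cKO 1, cKO 2.

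The start regions of 2 marker genes are shown, Trp73 of the rule and Nhlh2 from outside it. Trp73 encodes p73, a relative of p53 on which Cajal-Retzius cells depend for survival, and is known to be transcribed from an upstream and an internal start, which give a full-length and an N-terminally truncated protein. Nhlh2 encodes a basic helix-loop-helix transcription factor. The windows are those of RefSeq (GRCm38.p6), from 250 bases before to 50 bases after a gene's start. Capitals mark CAGCTG, an E-box of the kind that basic helix-loop-helix factors bind, searched on both strands (it reads the same on each, and no other motif was marked). The upstream Trp73 window lies at chr4:154139826-154140125 on the minus strand, the internal one at chr4:154097124-154097423 on the minus strand, and that of Nhlh2 at chr3:102009895-102010194 on the plus strand.
Trp73, upstream start: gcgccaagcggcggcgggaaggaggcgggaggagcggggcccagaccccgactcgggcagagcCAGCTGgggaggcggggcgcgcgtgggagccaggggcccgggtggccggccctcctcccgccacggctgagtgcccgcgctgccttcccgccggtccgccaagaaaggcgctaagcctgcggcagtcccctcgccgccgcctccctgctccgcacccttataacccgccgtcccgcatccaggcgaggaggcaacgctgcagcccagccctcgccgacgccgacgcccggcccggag
Trp73, internal start: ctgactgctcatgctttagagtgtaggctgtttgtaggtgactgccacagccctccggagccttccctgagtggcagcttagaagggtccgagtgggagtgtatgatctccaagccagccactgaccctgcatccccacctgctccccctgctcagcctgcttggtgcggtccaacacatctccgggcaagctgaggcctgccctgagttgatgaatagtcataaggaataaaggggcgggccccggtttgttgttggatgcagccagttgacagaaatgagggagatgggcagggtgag
Nhlh2: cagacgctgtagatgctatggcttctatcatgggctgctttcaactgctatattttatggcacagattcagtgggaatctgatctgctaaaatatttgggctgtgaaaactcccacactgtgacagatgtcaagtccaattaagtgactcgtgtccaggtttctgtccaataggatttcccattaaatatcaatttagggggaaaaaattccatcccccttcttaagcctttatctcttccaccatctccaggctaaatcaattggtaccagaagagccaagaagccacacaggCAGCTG
The upstream Trp73 window is rich in G and C (77.7% of its bases), the internal one less so (57.7%), and that of Nhlh2 least (43.3%). The E-box stands 187 bases before the upstream Trp73 start, and 44 bases after the Nhlh2 start. RefSeq windows were found for 12 of 20 genes looked up, the 5 rule genes and the 15 leading genes named below. CAGCTG occurred in 2 of their 13 windows, against 16.3% of all 32851 windows. These 2 were the upstream Trp73 window and the Nhlh2 window shown, so the genes shown do not stand for the 12. Counts were made from the 3′ ends of transcripts and cannot tell the 2 Trp73 starts apart.

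The genes of the rule describe the cells and were not tested. Reln, which encodes reelin, had counts in all 145 cells, Trp73 in 138, Lhx1 in 111, Lhx5 in 109 and Ebf2 in 26. Lhx1 and Lhx5 are LIM homeobox factors and Ebf2 is an early B-cell factor. The most frequent combination was Reln, Trp73, Lhx5 and Lhx1 together, in 59 cells. Reln stood at 4102, 3277, 4503 and 3571 CPM in Cajal-Retzius cells against 138 to 161 CPM in the other D1Tom cells. Trp73 stood at 310, 189, 361 and 245 CPM. Excitatory neurons, which should lack Trp73, had a count in 46 of 3698 cells (1.24%), at a median of 11467 counts per cell against 15866 in the Cajal-Retzius cells. Of the 145 cells, 63 had exactly 3 markers and 82 had 4 or 5. Just outside the rule were 70 cells with 2 markers and no Gad1 or Gad2 count, in which Reln was at 1679 CPM and Trp73 at 104 CPM. Another 38 cells had 3 or more markers together with a Gad1 or Gad2 count (1, 15, 5 and 17 by library).

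Cajal-Retzius cells of batch 2 stood apart in the transcripts of other cell types that they carried. The 5 excitatory markers, Slc17a7, Neurod2, Neurod6 and Mef2c among them, summed to 126, 1046, 92.4 and 400 CPM. The 5 astrocyte markers (Aldh1l1, Aqp4, Gja1, Slc1a3, Aldoc) summed to 180, 1741, 636 and 2144 CPM. In batch 2 the astrocyte sum was thus 96.4% and 82.6% of that in the other D1Tom cells, and in batch 1 it was 8.62% and 30.4%. A count in at least 3 of the 5 markers of another class was found in 10, 34, 7 and 31 cells, 82 of 145 in all, most often astrocyte (56 cells), oligodendrocyte precursor (41) or excitatory (32). The 5 microglial markers summed to at most 4.76 CPM and the 5 red cell markers to at most 2.15% of their sum in the other cells. All 5 choroid plexus markers had no count, as had Cx3cr1 and P2ry12 of microglia, Mog and Opalin of oligodendrocytes, Acta2 of mural cells and Col3a1 of meningeal fibroblasts. The 5 mural markers together still summed to 92.7, 90.8, 105 and 102 CPM. As a percentage of the sum in the other cells that was 108%, 30.9%, 166% and 53.8%. For the meningeal list it was 194%, 64.5%, 284% and 21.3%. For layer 6b it was 168%, 91.8%, 133% and 145%, and for the endothelial list 63.1%, 16.0%, 49.1% and 15.3%. Counts of the astrocyte gene Aqp4 were unevenly spread over the cells. Of the 141 Aqp4 counts in cKO 1, 130 came from 2 cells, and of the 375 in control 2, 190 came from 3 cells. No doublet caller was run, and leaving out every cell with another class keeps 28, 13, 20 and 2 cells. The part of these transcripts in the results below was not tested, and levels are therefore given by library throughout.

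**Figure D1:**
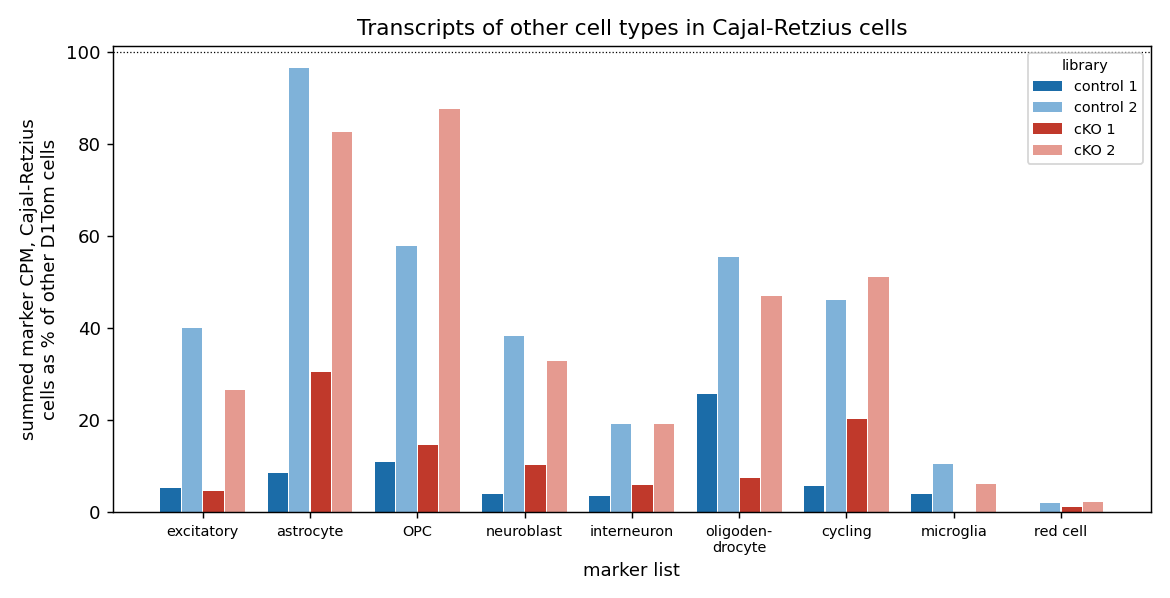
Summed CPM of the markers of 9 cell types in Cajal-Retzius cells, as a percentage of the same sum in the other D1Tom cells (y axis), for each marker list (x axis) and library (bars; blue for control, red for cKO, pale for batch 2). The astrocyte bars stand at 96.4% and 82.6% in the pale batch 2 libraries and at 8.62% and 30.4% in batch 1.

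Against all other D1Tom cells, the 15 leading genes of Cajal-Retzius cells, listed below, were higher by 5.44 to 6.98 on the log2 scale. Nhlh2 stood at 745, 486, 747 and 534 CPM against 3.31 to 8.52 CPM in the other cells, a 124-fold difference. Ndnf, a secreted neurotrophic factor, stood at 2042, 1481, 1965 and 1460.2 CPM against 37.2 to 44.4, a 43.8-fold difference. For both genes every Cajal-Retzius value lay far above every other value. Of 13883 genes tested, 1241 were higher (8.94%) and 1766 lower (12.7%) in Cajal-Retzius cells, by edgeR's quasi-likelihood test on the 4 libraries with the library as a block and an adjusted p under 0.05. The genes of the rule were left out of the test. The count fell to 1542 without cKO 1 and to 1213 when cells were thinned to 2000 counts, from 3007.

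The 15 largest rises, among genes with at least 20 CPM in every library and the same direction in all 4, were in Ripk4, Nhlh2, Barhl2, P2rx5, Gdf5, Npb, Ebf3, Rec114, Agt, Cd274, Fibin, Fam159b, Rassf4, Ndnf and Mrap2. Ripk4 is a kinase, P2rx5 an ATP-gated channel, Gdf5 a growth factor of the BMP family, Npb the neuropeptide B precursor and Agt angiotensinogen. Gdf5 stood at 230, 134, 237 and 152 CPM against 1.08 to 3.10 CPM. Cd274, which encodes the immune checkpoint ligand PD-L1, stood at 128, 66.1, 105 and 107 CPM against 0.785 to 2.00 CPM, a log2 difference of 6.29 (SE 0.32, adjusted p = 4.4e-08, edgeR). It was detected in 96 of 145 cells. Fibin, a secreted protein, stood at 283, 162, 300 and 136 CPM against 2.42 to 3.69 CPM. None of these groups overlapped, which follows in part from the choice of the largest rises. Rec114 overlaps Nptn on the other strand, and whether counting used strand is not given in the sources used here.

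The 10 largest falls were in the haemoglobins Hba-a1 and Hbb-bs (whose near-identical copies make their counts uncertain), the vascular genes Cldn5, Igfbp7, Gng11, Slco1c1 and Col4a1, the interneuron genes Adarb2 and Igf1, and Cbln2, a synaptic organizer. Cldn5 stood at 2.90, 6.48, 0 and 2.38 CPM against 29.6 to 237 CPM. Adarb2 stood at 1.45, 3.89, 6.30 and 0 CPM against 28.4 to 94.5 CPM, and since cells with Gad1 or Gad2 were excluded by the rule, low interneuron genes follow in part from the choice of cells. In these data, fewer cells of a type and less RNA per cell cannot be told apart in the sum over all other cells.

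The label was set beside a list of 21 further Cajal-Retzius markers, which was drawn up with earlier results of these data known and so is no independent check. Emx2 and Zic1 of this list, Cxcr4 and Slc17a6 also stand on lists below. Of 19 that could be tested, 17 were higher and 0 were lower, against 8.94% and 12.7% of all genes tested. The median log2 difference was 3.66, against -0.16 over all genes tested. Calb2, which encodes the calcium buffer calretinin, stood at 600, 235, 353 and 274 CPM against 6.99 to 13.9 CPM. Ebf3, another early B-cell factor, stood at 159, 131, 136 and 90.5 CPM against 0.897 to 2.19 CPM. Cacna2d2, an auxiliary subunit of calcium channels, stood at 630, 310, 598 and 391 CPM against 19.1 to 28.1 CPM. Tbr1, a T-box factor of early-born glutamatergic neurons, stood at 323, 239, 311 and 250 CPM against 63.5 to 92.7 CPM. All 4 genes were separated from the other cells in every library, with adjusted p from 3.1e-08 (Cacna2d2) to 7.2e-06 (Tbr1) by edgeR. Ebf1 was the tested marker with the widest spread, at 30.4, 42.8, 50.4 and 4.76 CPM against 8.51 to 27.9 CPM, and did not pass (adjusted p = 0.083, edgeR).

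**Figure D2:**
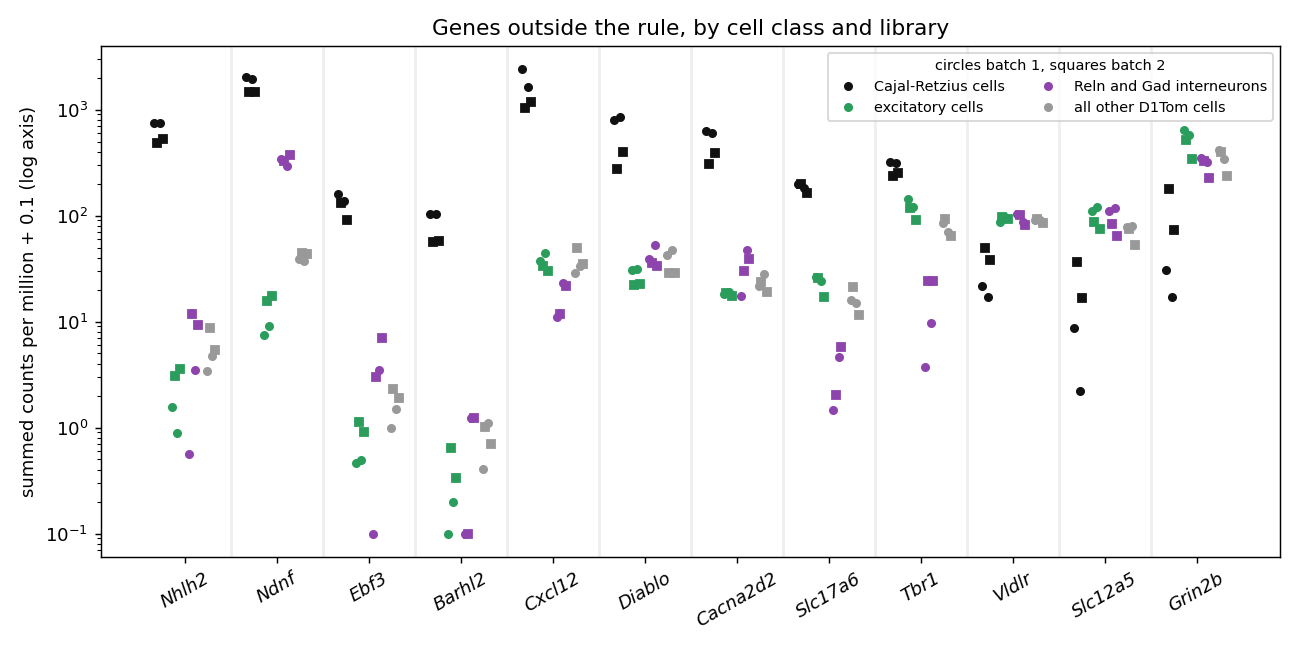
Level of 12 genes outside the rule (x axis) in CPM plus 0.1 on a log axis (y axis), in Cajal-Retzius cells (black), excitatory cells (green), interneurons with Reln, Gad1 and Gad2 (purple) and all other D1Tom cells (grey). Each point is 1 library, circles for batch 1 and squares for batch 2. Nhlh2 stands at 486 to 747 CPM in the black points and at most 11.6 CPM elsewhere, and the black Grin2b points of batch 1, at 30.4 and 16.8 CPM, lie below those of batch 2.

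Transcription factors and signals of the regions where Cajal-Retzius cells arise were mostly higher. Of 22 tested members of that list, 12 were higher and 6 lower, against 8.94% and 12.7% of all genes tested. The median log2 difference was 1.17. Emx2, a homeobox gene of the medial pallium, stood at 401, 227, 399 and 214 CPM against 32.2 to 38.2 CPM, an 8.78-fold difference. Zic1, a zinc finger gene of hem and septum, stood at 278, 148, 164 and 141 CPM against 24.6 to 42.7 CPM. It overlaps Zic4 on the other strand, and Zic4, at 66.7, 29.8, 33.6 and 26.2 CPM against 3.87 to 8.92, was also higher (adjusted p = 0.0013, edgeR). Nr2f2, which encodes COUP-TFII, stood at 461, 370, 468 and 391 CPM against 28.7 to 41.1 CPM, and Barhl2, a BarH-like homeobox gene, at 104, 55.8, 103 and 57.2 CPM against 0.308 to 0.999. All 4 of these genes were higher in each library by several-fold.

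Of 27 tested genes of the reelin pathway other than Reln, 0 were higher and 6 lower than in the other cells, against 8.94% and 12.7% of all genes tested, with a median log2 difference of -0.38. Src, the gene of a kinase and named after its values were seen, passed as higher against excitatory cells (adjusted p = 0.045, edgeR) and against interneurons with Reln (adjusted p = 0.026, edgeR), and did not against all other cells (adjusted p = 0.092, edgeR). The receptor gene Vldlr stood at 21.7, 49.3, 16.8 and 38.1 CPM against 85.7 to 92.6 CPM in the other cells (log2 difference -1.49, SE 0.24, adjusted p = 0.0010, edgeR). Lrp8, the gene of the second receptor, stood at 78.2, 88.2, 60.9 and 76.2 CPM against 86.9 to 125 CPM and did not pass (log2 difference -0.30, SE 0.16, adjusted p = 0.22, edgeR). The adaptor gene Dab1 stood at 11.6, 94.7, 35.7 and 100.0 CPM against 132 to 156 CPM (log2 difference -1.38, SE 0.36, adjusted p = 0.017, edgeR). Vldlr and Dab1 were below the other cells in all 4 libraries and lowest in batch 1, where the markers of other types were lowest too. The Dab1 call did not hold without cKO 1 (adjusted p = 0.10, edgeR), and the log2 difference of Dab1 was -2.70 in batch 1 alone and -0.49 in batch 2 alone.

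Transmitter genes were those of a glutamatergic neuron with VGLUT2. Slc17a6, the VGLUT2 gene, stood at 199, 197, 181 and 164 CPM against 11.5 to 21.0 CPM, a 12.4-fold difference (adjusted p = 3.1e-08, edgeR). Slc17a7, the VGLUT1 gene of most cortical excitatory neurons, stood at 8.69, 67.4, 10.5 and 19.1 CPM against 92.4 to 121 CPM. In the transmitter list, 1 of 7 tested genes was higher and 4 were lower, against 8.94% and 12.7% of all genes tested. Gad1 and Gad2, at 0 by the rule, were not among the 7.

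In the list of chloride transporters and GABA and glycine receptor subunits, 1 of 20 tested genes was higher (Glrb, the glycine receptor beta subunit) and 10 were lower, against 8.94% and 12.7% of all genes tested, with a median log2 difference of -1.20. Slc12a5, the KCC2 gene that exports chloride from maturing neurons, stood at 8.69, 36.3, 2.1 and 16.7 CPM against 53.2 to 79.1 CPM, a 4.29-fold difference (adjusted p = 0.0022, edgeR). Its log2 difference was -3.59 in batch 1 alone, -1.20 in batch 2 alone and -2.88 without control 2. Slc12a2, the NKCC1 gene that imports chloride, stood at 11.6, 28.5, 14.7 and 26.2 CPM against 28.8 to 39.1 CPM. Both transporters were lower than in the other cells in every library, though the Slc12a2 call (adjusted p = 0.041, edgeR) held in only 2 of 11 alternatives, with adjusted p up to 0.72. Glra2, the glycine receptor alpha 2 subunit, stood at 1.45, 19.5, 6.30 and 9.53 CPM against 35.1 to 60.4 CPM (log2 difference -2.38, and -3.21 without control 2), a call that was lost on thinned cells (adjusted p = 0.065, edgeR).

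In the list of glutamate receptors, 2 of 22 tested genes were higher and 10 were lower, against 8.94% and 12.7% of all genes tested. The median log2 difference was -1.14. The higher genes were the AMPA receptor subunits Gria1 and Gria4. Both were also called higher against excitatory cells, and neither was against interneurons with Reln. Gria4 stood at 73.9, 64.8, 77.7 and 71.5 CPM against 26.9 to 37.7 CPM. Grin2b, an NMDA receptor subunit of young neurons, stood at 30.4, 176, 16.8 and 73.8 CPM against 235 to 418 CPM (log2 difference -2.41, SE 0.38, adjusted p = 0.00087, edgeR). It was lower in all 4 libraries, and the log2 difference was -3.84 in batch 1 alone, -1.31 in batch 2 alone and -3.02 without control 2.

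Ion channel genes went both ways, with 7 of 37 higher and 12 lower (median log2 difference -0.78), against 8.94% and 12.7% of all genes tested. The calcium channel subunit gene Cacna2d1 stood at 667, 488, 571 and 464 CPM against 70.8 to 105 CPM, a 6.25-fold difference. Kcnh7, a potassium channel of the ERG family, stood at 571, 433, 449 and 317 CPM against 57.2 to 119 CPM, a 4.86-fold difference. It overlaps Gca on the other strand. Hcn4, a pacemaker channel, and Cacna2d2 were also higher, while the sodium channel genes Scn1a, Scn2a1, Scn8a and Scn9a were lower. Of 8 calcium-binding genes, Calb2 and Hpcal1 were higher and Ncald, Necab1 and Necab2 lower, against the same 8.94% and 12.7%.

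Among genes of chemokine signalling and guidance, 5 of 31 were higher and 10 lower (median log2 difference -0.90), against 8.94% and 12.7% of all genes tested. Cxcl12, a chemokine that the meninges also make, stood at 2410, 1028, 1644 and 1177 CPM against 28.9 to 49.3 CPM, a 42.9-fold difference. Its receptor gene Cxcr4, by which Cajal-Retzius cells are held under the meninges, stood at 65.2, 54.5, 118 and 57.2 CPM against 4.85 to 6.53 CPM, a 12.7-fold difference. Both the ligand and the receptor were therefore above the other cells in each library. Robo2, a receptor for Slit repellents, stood at 439, 364, 533 and 345 CPM against 113 to 149 CPM. Plxnd1, a semaphorin receptor, stood at 92.7, 54.5, 84.0 and 102 CPM against 28.7 to 41.4 CPM, a call that was lost on thinned cells (adjusted p = 0.64, edgeR). Epha3, an ephrin receptor, was the fifth higher gene. The 5 meningeal markers summed to 18.8, 13, 27.3 and 7.15 CPM in Cajal-Retzius cells and 9.62 to 33.6 CPM in the others, and Col3a1 had no count. Col1a1 of that list, chosen after its values were seen, made up most of the sum in batch 1, at 18.8, 7.78, 18.9 and 2.38 CPM against 0.252 to 3.35 CPM. The part of meningeal RNA in the Cxcl12 level was not tested.

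Diablo stood out in the list of cell death genes. Whether its level bears on the later loss of these cells was not tested. It encodes Smac, a mitochondrial protein that blocks inhibitors of caspases once released. It stood at 791, 277, 854 and 398 CPM against 28.7 to 46.8 CPM, a 15.3-fold difference (log2 difference 3.93, SE 0.20, adjusted p = 4.4e-08, edgeR), and 136 of 145 cells had a count. In the cells left after removing those with another class Diablo was at 846, 516, 970 and 797 CPM, the last from 2 cells. Diablo overlaps B3gnt4 on the other strand. Of 27 tested genes of the list 4 were higher (Bcl2l2, Bbc3, Diablo and Ccng1) and 5 lower (Bak1, Bok, Bcl2, Mcl1 and Casp8). Of all genes tested, 8.94% were higher and 12.7% lower, and the median log2 difference of the list was -0.02. Bcl2l2, Diablo and Ccng1 were also called higher against excitatory cells and against interneurons with Reln, and Bbc3 was not. Bcl2l2 and Bcl2 encode proteins that protect from apoptosis, and Bbc3 and Bak1 proteins that promote it. Bax, whose product promotes apoptosis, stood at 203, 261, 275 and 236 CPM against 268 to 326 CPM and did not pass (log2 difference -0.23, SE 0.14, adjusted p = 0.29, edgeR).

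Lists for maturity fell on both sides of development. Beside the counts that follow, 8.94% of all genes tested were higher and 12.7% lower. Of 13 genes of immature neurons, 1 was higher (Gap43, a growth cone protein) and 7 were lower, Dcx, Sox4 and Sox11 among them. Of 12 genes of mature neurons, 1 was higher (Thy1) and 7 were lower, Camk2a, Rbfox3 and Nefm among them. Gap43 was not called higher against excitatory cells, and Thy1 neither against those nor against interneurons with Reln. Mitochondrial transcripts made up a median of 2.06%, 3.75%, 2.5% and 4.25% of the counts of a Cajal-Retzius cell against 3.10%, 4.22%, 4.39% and 6.06% in the other cells. Of the 13 genes encoded in the mitochondrial genome, 6 were lower and 0 higher. Against interneurons with Reln, 0 were lower and 1 (mt-Co1) was higher. Over all libraries the median mitochondrial share was 2.46% in those interneurons and 3.05% in Cajal-Retzius cells.

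**Figure D3:**
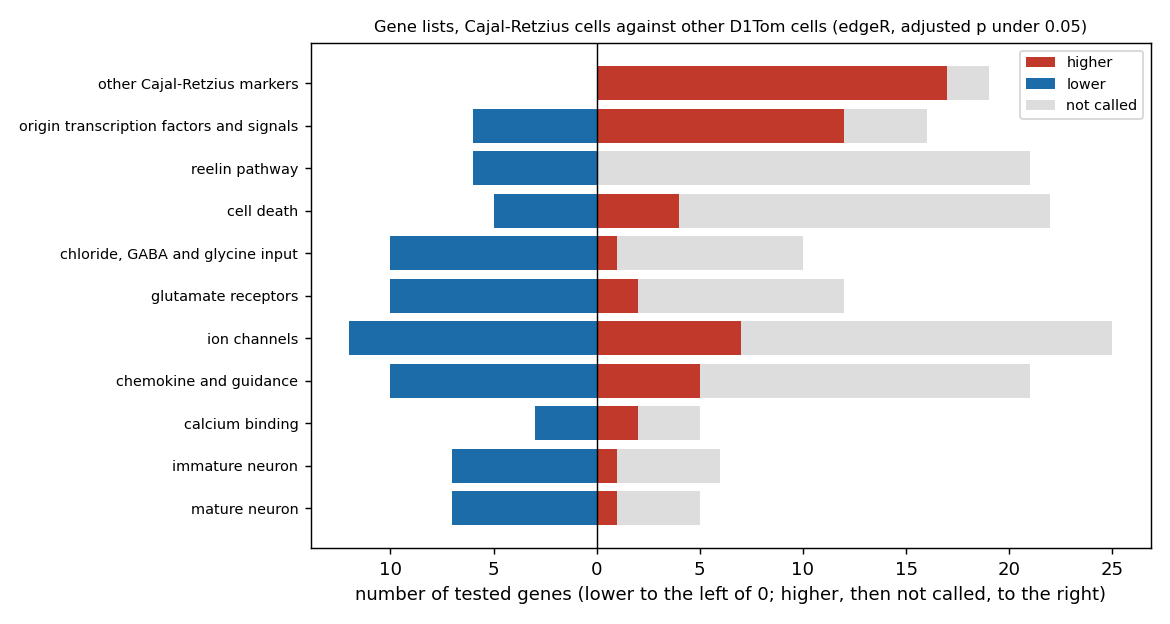
Number of tested genes of each list (y axis) that were lower (blue, left of 0), higher (red) or not called (grey, right of red) in Cajal-Retzius cells against all other D1Tom cells, by edgeR at an adjusted p under 0.05 (x axis). The further Cajal-Retzius markers show 17 higher of 19, and the reelin pathway 6 lower of 27. Over all genes tested, 8.94% were higher and 12.7% lower.

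Excitatory neurons of the same libraries gave a closer comparison. They were the 3698 cells with counts in at least 3 of the 5 excitatory markers and none in Gad1 or Gad2, and 1998 of them also met the marker rule of another class. Of 12843 genes tested, 1427 were higher (11.1%) and 1737 lower (13.5%) in Cajal-Retzius cells, by the same edgeR test without the genes of either rule. Without cKO 1 the count was 2069 in place of 3164, and on thinned cells 1340. All leading genes against the other cells except Mrap2 were among the 15 leading genes here too, and the remaining one was Insm2. The 2 comparisons share the Cajal-Retzius sums. Nr2f2 differed more here than against all other cells, at 4.52 to 13.6 CPM in excitatory neurons and a 52.1-fold difference. Slc17a6 was 8.37-fold and Tbr1 2.47-fold higher than in excitatory neurons. Nxph4, a marker shared with layer 6b, stood at 73.9, 27.2, 44.1 and 42.9 CPM against 2.27 to 6.99 CPM, whereas Ctgf, Cplx3 and Moxd1 of the same 5-gene list were lower. The 10 largest falls were Scn9a, Cbln2, Sema7a, Trpc4, Nov, Rax, Rbm24, Slc7a8, Slc30a3 and Cacng3. Slc30a3, the transporter that loads zinc into glutamatergic vesicles, stood at 1.45, 9.08, 2.1 and 7.15 CPM against 43.1 to 71.3 CPM.

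Interneurons with counts for Reln, Gad1 and Gad2 were another group of neurons with Reln in the sort (400 cells, median 13982 counts). Cells with at least 3 of the 5 excitatory markers were left out of them, but not out of the Cajal-Retzius cells, where 32 had such counts. Of the 400 interneurons, 12 had a Trp73 count. A Reln count was also found in 756 of the 3698 excitatory cells. Of 9684 genes tested, 1083 were higher (11.2%) and 1084 lower (11.2%) in Cajal-Retzius cells by edgeR. Without cKO 1 the count was 1129 in place of 2167, and on thinned cells 750. Reln itself, used by both rules, was at 1338 to 1515 CPM in these interneurons. Ndnf, also a marker of layer 1 interneurons, stood at 291 to 369 CPM in them and was 5.42-fold higher in Cajal-Retzius cells, against 152-fold over excitatory neurons. Nr2f2 was near in both, at 206 to 265 CPM in the interneurons and 1.78-fold higher in Cajal-Retzius cells (adjusted p = 0.0015, edgeR). Calb2 was at 5.79 to 16.0 CPM in them and 29.6-fold higher in Cajal-Retzius cells. The 10 largest falls were Prok2, Dlx6, Dlx5, Slc32a1, Igf1, Adarb2, Zmat4, Rpp25, Lamp5 and Sst. Most are genes of GABAergic neurons, which the Gad condition of both rules separates by design. Prok2 and Dlx6 had no count in the Cajal-Retzius cells of any library.

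The 145 cells varied among themselves in several markers. Reln ranged from 334 to 7478 CPM per cell with a median of 3850. Ndnf was found in 144 cells, with a median of 1769 CPM, Nhlh2 in 140, with a median of 593, and Cacna2d2 in 139, with a median of 471. In excitatory cells Ndnf was found in 6.14% and Nhlh2 in 1.41%. At 2000 counts per cell the shares with a count were lower and differed by library: Nhlh2 was found in 84.2%, 46.8%, 65.4% and 63.6% of the cells, and Ndnf in 97.4%, 83.0%, 100% and 87.9%. Calb2 was found in 114 cells, from 63.8% of those of control 2 to 94.7% of those of control 1. Barhl2 was found in 77, Zic1 in 107 and Emx2 in 125 cells. Zic4 was found in 35 of 107 cells with Zic1 (32.7%) and in 5 of 38 without (13.2%), at median counts per cell of 16410 and 14706. Dmrt3, a gene of the medial pallium, was found in 17 cells, and all 17 had Calb2, against 97 of 128 cells without Dmrt3 (75.8%). The cells with Dmrt3 were deeper, with a median of 18258 counts against 15326.5, so depth moves with this co-detection, and its part was not tested.

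The share of Cajal-Retzius cells was lower in both cKO libraries than in both controls, which the test that 4 libraries allow cannot tell from their spread. It was 1.19% of cells in control 1 (exact 95% binomial interval 0.840% to 1.62%), 1.96% in control 2 (1.45% to 2.60%), 0.960% (0.634% to 1.39%) in the first cKO library and 1.07% (0.738% to 1.5%) in the second. The mean was 1.57% ± 0.550 (SD, n = 2) in controls and 1.02% ± 0.0784 in cKO. The groups did not overlap, yet an exact two-sided permutation test gave p = 0.333, the smallest that 2 libraries against 2 can give. The difference was -0.225 percentage points within batch 1 and -0.891 within batch 2, and from -0.947 to -0.170 when each library was left out in turn. Since the rule depends on depth, cells were also thinned to equal counts. At 2000 counts the rule found 29 cells, and the shares were 0.360%, 0.209%, 0.226% and 0.234%, which overlapped between genotypes (148, 1, 161 and 86 shallower cells left out). At 4000 counts the rule found 82 cells, and the shares were 0.940%, 1.01%, 0.752% and 0.569%. With at least 4 markers on all counts they were 0.842%, 0.835%, 0.676% and 0.519%, and with at least 2 markers 1.84%, 2.84%, 1.42% and 1.56%. In these 3 variants the genotypes did not overlap, and the exact permutation test again gave p = 0.333. Without the condition on Gad1 and Gad2 the shares were 1.22%, 2.59%, 1.1% and 1.62%, and the genotypes overlapped. The intervals cover counting error only.

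**Figure D4:**
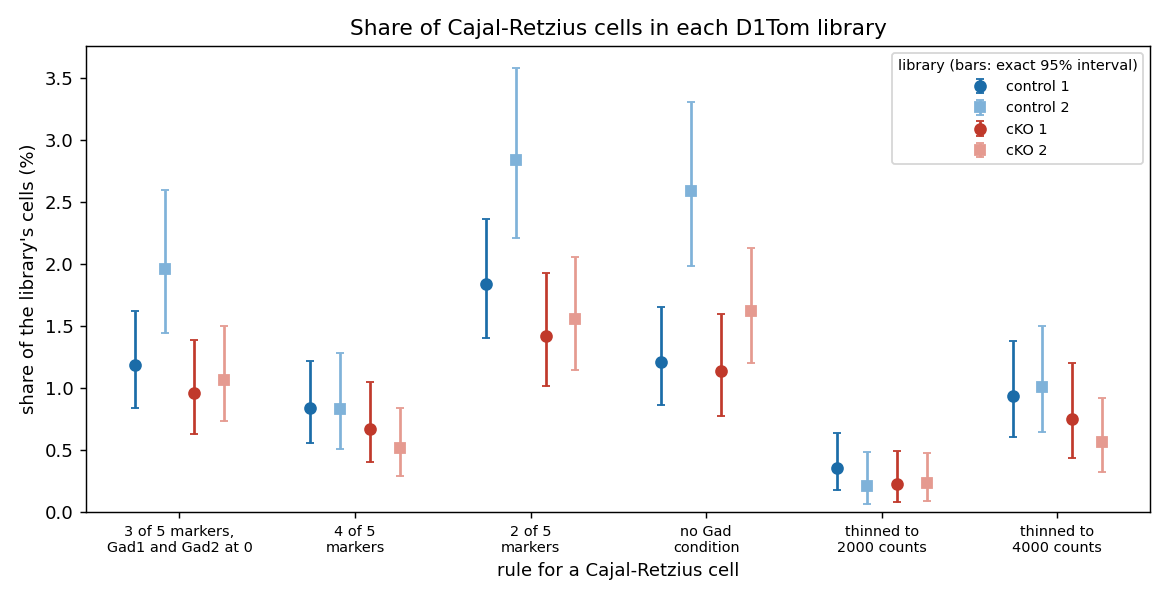
Share of the cells of each D1Tom library that met the rule for Cajal-Retzius cells (y axis, percent) under the rule as used and 5 variants (x axis). Points are libraries, blue for control and red for cKO, circles for batch 1 and squares for batch 2, and bars are exact 95% binomial intervals. Control 2 stands highest, at 1.96%, under the rule as used, and the libraries lie between 0.209% and 0.360% after thinning to 2000 counts.

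Foxp2, the targeted gene, was scarce in Cajal-Retzius cells of both genotypes. It had 0, 13, 0 and 3 counts, in 0, 7, 0 and 2 cells, which is 0, 16.9, 0 and 7.15 CPM. In the other D1Tom cells Foxp2 was at 37.0 and 39.6 CPM in controls and 27.0 and 19.6 CPM in cKO. The few counts in Cajal-Retzius cells thus lay in batch 2, where the markers of other types were also high, and the 13 cells of control 2 without another class held 11.3 CPM. Drd, the symbol in the tables taken for the dopamine D1 receptor gene Drd1, had 6, 28, 0 and 8 counts, or 8.69, 36.3, 0 and 19.1 CPM. In the other cells it was at 66.6 and 65.1 CPM in controls and 27.7 and 21.1 CPM in cKO. Control and cKO values of both genes overlapped in Cajal-Retzius cells and not in the other cells. Within each batch, however, Drd was lower in cKO Cajal-Retzius cells, and so was Foxp2 in batch 2. The batch 2 log2 ratio of cKO over control was -1.24 for Foxp2 and -0.93 for Drd. In the other cells of batch 2 it was -1.01 and -1.63. In batch 1 Foxp2 had no count in Cajal-Retzius cells of either genotype. Against the other cells over both genotypes, Foxp2 (log2 difference -2.32, SE 0.55, adjusted p = 0.0097, edgeR) and Drd (-1.49, SE 0.43, adjusted p = 0.025, edgeR) were lower in Cajal-Retzius cells. The log2 difference of Foxp2 was -3.77 without control 2. Its call was lost on thinned cells (adjusted p = 0.068, edgeR), and that of Drd without control 1 (0.061), without cKO 1 (0.070), in batch 2 alone (0.079) and on thinned cells (0.11). Of 12 tested genes of the Foxp family and D1 signalling, 8 were lower and 0 higher, against 12.7% and 8.94% of all genes tested.

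No gene passed in the comparison of cKO with control within Cajal-Retzius cells. Of 7688 genes tested by edgeR on the 2 control and 2 cKO sums, 0 were called (0%), 52 had an unadjusted p under 0.05, and DESeq2 called 0 with 9 at that level. The count was 131 without control 2, 10 without control 1, 3 without cKO 1 and 0 without cKO 2. Foxp2 fell below the filter on low counts and had no test there. Drd had a log2 difference of -1.23 (SE 1.26, edgeR adjusted p near 1). The 10 smallest unadjusted p belonged to mt-Atp6, Fos, mt-Co2, St7l, Samd4b, Tmem178b, Ndc1 and 3 genes known by clone names only. The mitochondrial gene mt-Atp6 stood at 575 and 380 CPM in controls and 993 and 1241 CPM in cKO, and in the other D1Tom cells at 998 and 440 against 1753 and 1639 CPM. The immediate early gene Fos stood at 145 and 66.1 CPM in controls and 12.6 and 28.6 CPM in cKO, and in the other cells at 547 and 53.4 against 62.7 and 51.1 CPM. The cKO over control log2 ratio of Fos was -3.52 in Cajal-Retzius cells and -3.13 in the other cells of batch 1, and -1.21 and -0.06 in batch 2. mt-Co2 stood at 49.3 and 214 CPM against 12.6 and 21.4, and in the other cells at 84.2 and 241 against 8.69 and 32.2. The control and cKO values of these 3 genes did not overlap in Cajal-Retzius cells. The 3 were picked for their small p in this comparison, so this separation follows from the choice. Both mitochondrial genes were ordered the same way in the other cells.

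**Figure D5:**
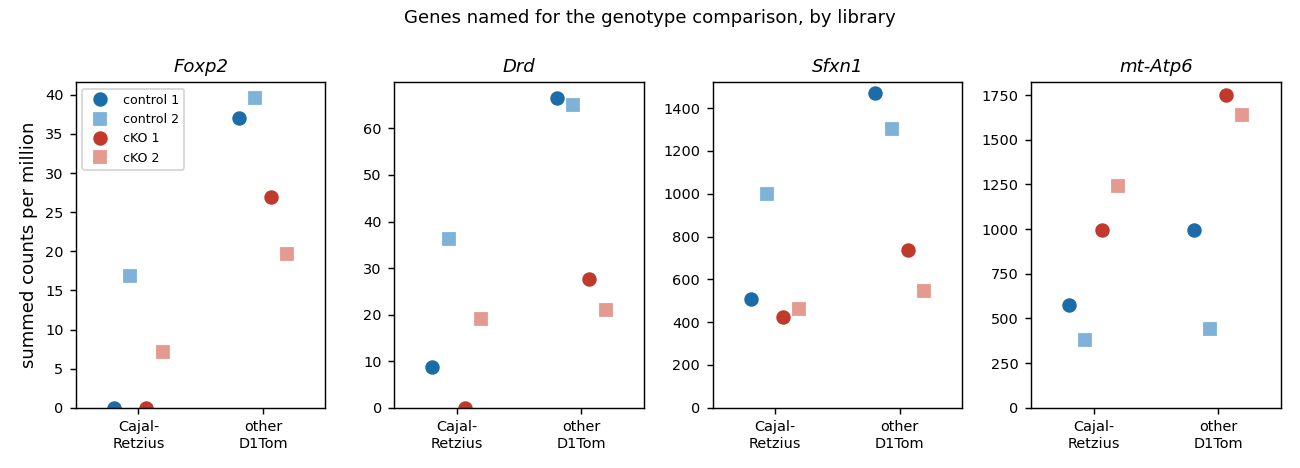
Level of Foxp2, Drd, Sfxn1 and mt-Atp6 in CPM (y axis, each panel with its own scale from 0) in Cajal-Retzius cells and in the other D1Tom cells (x axis). Points are libraries, blue for control and red for cKO, circles for batch 1 and squares for batch 2. Control and cKO points of Foxp2 and Drd are apart in the other cells and overlap in Cajal-Retzius cells. Within batch 2 the cKO point of Cajal-Retzius cells lies below the control point for both genes, and within batch 1 for Drd.

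With the batch as a replicate block, 19 genes (0.247%) were called: 16 were higher (0.208%) and 3 lower (0.039%) in cKO by edgeR. The higher genes included Aqp4, Gfap, Glul, Slc1a2, Mt1, Mt3 and Ptn, which astrocytes express, besides mt-Atp6 and mt-Co1. The lower genes were Fos, Mef2c and mt-Co2. The sum of the 5 astrocyte markers, given above, was also higher in cKO than in control within each batch, and that of the 5 excitatory markers, Mef2c among them, was lower. Their part in these calls was not tested. In the cells without another class Mef2c was at 67.5 and 204 CPM in controls and 62.3 and 187 CPM in cKO. Aqp4 stood at 14.5 and 486 CPM in controls and 296 and 705 CPM in cKO, and Gfap at 10.1 and 341 against 218 and 638 CPM. The genotypes overlapped for both genes, and both were higher in cKO within each batch. Of the 104 Gfap counts in cKO 1, 90 came from 2 cells, as did most Aqp4 counts there. In the cells without another class Aqp4 was at 4.09, 17, 14.8 and 141 CPM, the last from 2 cells. Sfxn1, the gene of a mitochondrial serine transporter, stood at 509 and 997 CPM in controls and 426 and 460 CPM in cKO (log2 difference -0.73, SE 0.37, unadjusted p = 0.090, edgeR, and adjusted p = 0.11 with the block). With 2 libraries against 2, values that do not overlap give an exact two-sided permutation p no smaller than 0.333. Control and cKO values of Sfxn1 did not overlap, and Sfxn1 passed in neither fit. In the other cells it stood at 1468 and 1303 against 736 and 545 CPM. Whether the genotype difference was another in Cajal-Retzius cells than in the other cells was tested as an interaction over 13890 genes. edgeR called 0 (0%), with 110 at an unadjusted p under 0.05, and DESeq2 called 0, with 56. Without control 2 the count was 94, and with at least 4 markers asked of a cell it was 9. The interaction was -0.55 (SE 1.44) for Foxp2 and 0.12 (SE 1.01) for Drd on the log2 scale, with edgeR adjusted p near 1 for both. The 10 smallest unadjusted p of the interaction were those of Ier2, St7l, Serpinf1, Ipcef1, Ppp6r1, Eomes, Mfn1, Plekhb1 and 2 genes known by clone names only.

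In the GTE sort, 10 of 11382 cells met the same rule, 0, 2, 6 and 2 by library, which had a median of 7967.5 counts, at median depths of 1085.5, 1163, 2982 and 1268 counts per cell over all cells of those libraries. All 10 had counts for Ndnf, Nhlh2 and Cacna2d2, against 0.317%, 0.0703% and 1.42% of the other GTE cells, and 8 had Diablo, against 3.00%. The sorts differ in depth and in the reporter, so their shares were not compared. Among the D1Tom libraries, 97 cell barcodes occurred in more than 1 library, in 200 cells, of which 1 was a Cajal-Retzius cell.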

How the data were processed

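The deposited tables hold counts per gene and cell, which the authors made with Cell Ranger 2.1.1, UMI-tools 0.5.4, STAR 2.5.2b, featureCounts of Subread 1.6.2 and SAMtools 1.6 on GRCm38.p6 (mm10), per the submitters' processing notes. The order of these steps and the strand setting of the counting are not given in the sources used here. The deposited cell table gives the mitochondrial share of counts as a fraction, computed by the authors. All 17836 genes of the D1Tom table held whole numbers. The ratio of values of 2 to values of 1 was 1.69 and 1.54 in batch 1 (control 1, cKO 1) and 0.723 and 0.307 in batch 2 (control 2, cKO 2), a ratio that differs between batches. The counts may therefore not be single deduplicated molecules, and levels, detection and thinning to 2000 counts may not mean the same in both batches, so no Poisson interval or limit for a count of 0 is given. Shares have exact (Clopper-Pearson) 95% intervals, for counting error only.

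Cajal-Retzius cells and the lists were chosen with earlier results of these data known. Counts were summed per library and class and tested with edgeR 4.0.16 in R 4.3.3 (quasi-likelihood, TMM, filterByExpr, Benjamini-Hochberg adjustment over all genes tested, threshold 0.05), with the library as a block for cells of the same library. Sums have 4 libraries, 2 per genotype. DESeq2 1.42.0, no filter, leaving out each library, at least 4 markers, cells without 3 markers of another class and thinning to 2000 counts were alternatives. The fits within 1 batch, and excitatory cells without another class, were added after seeing the data. A fit within 1 batch has 1 residual degree of freedom. Labels place libraries of the same number in 1 batch, and their deviations from the group means correlated at 0.534 over 7688 genes, so the block was fitted for the genotype comparison. Named genes are the 7 of the rule, at most 30 list genes per comparison, the 15 largest rises and 10 largest falls with at least 20 CPM in every library of the higher side, and the 10 smallest p of each genotype test with Foxp2 and Drd. Other genes named were chosen after their values were seen. No doublet caller was run. On simulated counts the tests recovered 63% of 2-fold and 76% of 4-fold changes against the other cells, 37% and 84% for genotype, and 9% and 46% for the interaction. The simulation gave every gene the same dispersion and every library the same profile, with no batch and no uneven RNA of other cell types. These percentages therefore do not measure what the tests could recover in the libraries here. Some genes are not reported here.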

Additional observations from a re-analysis of the deposited data

How the results depend on the processing

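Counts of called genes kept within 1.5 times of their value in the 3 comparisons with other cells, except on cells thinned to 2000 counts, where they were 1213 against the other D1Tom cells, 1340 against excitatory cells and 750 against interneurons with Reln, and except without cKO 1. Leaving out 1 library at a time gave 1542 to 2539, 2069 to 2831 and 1129 to 1898 genes in that order. For cKO against control the count of 0 became 5 without the filter on low counts and 19 with the replicate block, and 0 to 131 when 1 library was left out. The interaction count of 0 became 9 with at least 4 markers and 0 to 94 when 1 library was left out. With the replicate block, the difference in share of cells was -0.558 points with p = 0.5, the smallest an exact paired permutation test of 2 pairs can give. Of the named genes against the other cells, 521 of the alternatives kept direction and call and 18 lost the call, Slc12a2 and Drd most often. Against excitatory cells, 572 kept both, 12 lost the call and Plxnd1 turned to -0.043 (log2) on thinned cells. The interaction of Foxp2 was 0.81 on thinned cells and -9.56 to 9.37 when 1 library was left out. That of Drd was -0.063 in DESeq2, -0.67 with at least 4 markers, -9.20 without cells of another class and -10.27 to 1.39 when 1 library was left out. That of Serpinf1 was -7.68 without cells of another class. Where a library is left out of a genotype comparison, the lone library of its group is assumed to vary like the others. None of these interactions passed the threshold, and the cause of each shift was not tested. With 27 to 47 Cajal-Retzius cells per library, genes with few counts, Foxp2 among them, have little precision.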
